A study of Homo sapiens with 21 samples.

Results

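The genes described here release calcium from the endoplasmic reticulum (ER), pump it back in, or refill the store from outside the cell. They are the IP3 receptors ITPR1, ITPR2 and ITPR3, the ryanodine receptors RYR1, RYR2 and RYR3, the ER calcium pumps ATP2A2 and ATP2A3, the store sensor STIM1 and the store-operated channel ORAI1. The 10 genes were chosen by symbol, matched through the Ensembl identifiers of the count table, out of 37637 features. Of the 10, 7 passed the filter on low counts and were tested among 17951 features, and RYR1, RYR2 and ATP2A3 did not pass it.

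The libraries came from HepG2, a human hepatocellular carcinoma cell line. Cells spent 24 h in serum-free DMEM, without caffeine (0 µM, control) or with it at 0.01, 0.1, 1, 10, 100 or 1000 µM, so all 7 groups share the line, the serum-free medium and the exposure time. Caffeine was dissolved in DMEM, and no other agent is given. Each group has 3 biological replicates, which makes 21 poly(A)-selected libraries of 1 cell line.

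Inositol trisphosphate (IP3), made when receptors at the cell surface switch on phospholipase C, opens the IP3 receptors, and calcium flows from the ER into the cytosol. SERCA pumps, the products of the ATP2A genes, use ATP to return calcium to the ER. When the store runs low, STIM1 senses the fall in ER calcium and opens ORAI1 channels in the plasma membrane. In liver cells the IP3 receptors carry the calcium signals of hormones that mobilise glucose, while ryanodine receptors, the direct targets of caffeine at high concentrations, are best known from muscle and neurons.

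Total counts per library ran from 23502519 to 44815552. The levels of the 13 mitochondrial mRNAs relative to each other split the libraries into 3 sets that cut across the doses. The labels name no batch. Set A held 11 libraries, all those at 0, 0.01 and 0.1 µM and replicates 1 and 2 at 1 µM. All mitochondrial genes together took 9.95% to 14.2% of its counts, a share that was not used to define the sets. In set B, with 4.72% to 4.94%, were 7 libraries: the whole 10 µM group, the third replicate at 1 µM, the second at 100 µM and the first pair at 1000 µM. The other 3 libraries, of which 2 had 100 µM and 1 had 1000 µM, formed set C, with 11.8% to 12.8%. No control library lies in set B or C, so set and dose cannot be fully told apart, and fits were run with and without the set as a term. Sets A and B meet only at 1 µM. With the set term, 10, 100 and 1000 µM are therefore compared with control through 1 set B library, replicate 3 at 1 µM. A call lost with that term can reflect a wider error as well as a smaller change. All 10 hepatocyte markers examined were expressed, with ALB, APOA1 and HNF4A among them, at a summed 29557 to 44335 CPM (read counts scaled to a common library size). By the edgeR test described below, 7 of these 10 were called at 1000 µM, 2 higher and 5 lower, beside 57.6% of all features, with a median log2 fold change of -0.51. The fit with the set term called 8, 2 higher and 6 lower, beside 38%. ALB, AFP, TF, SERPINA1 and FGB fell, by 0.81 to 1.40 on the log2 scale. Of 10 markers of other cell types, 8 were in the table and 2 passed the filter. Their summed level was 1.20 to 28.9 CPM. Most of it in control libraries was ACTA1, a muscle actin, which fell from 19.8 CPM at 0 µM to 0.588 CPM at 1000 µM, while PTPRC, COL1A1, MYH7 and RBFOX3 stayed at or near 0 in every library. The part of these markers in the results below was not tested.

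The levels of the 10 genes differed widely in control cells. Per kilobase of the principal transcript, ATP2A2 was highest at 58.6 ± 2.75 RPKM (SD, n = 3), followed by ITPR3 at 21.7 ± 4.87, STIM1 at 18.1 ± 2.43, ITPR2 at 16.9 ± 1.65 and ORAI1 at 13.2 ± 2.51 RPKM. The neighbours ITPR3, STIM1 and ITPR2 lay within their spread of each other. ITPR1 stood well below them, at 2.80 ± 0.277 RPKM. Over all of its joined exons it came to 0.844 RPKM, and its rank was 6 by either length. By joined exons ITPR3 was the highest of the 10, at 21.7 RPKM, ahead of ATP2A2 at 17.5 RPKM.

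Transcripts of the ryanodine receptors were scarce. RYR1, the skeletal muscle channel, had 1 count in 1 of the 21 libraries. RYR2, the heart channel, had 3 counts in each of 2 libraries, 1 at 0.01 µM and 1 at 1 µM, and 0 in the rest. A count of 0 allows up to 3 counts, which is 0.0640 to 0.132 CPM across the libraries, and such limits cover counting error only. RYR3, the form found at low levels in many tissues, had 4 to 21 counts per library and 0.113 to 0.705 CPM. ATP2A3, the SERCA3 pump of blood and epithelial cells, had 0 to 15 counts per library. HepG2 cells in all 7 groups therefore had the transcripts of the IP3 receptors, ATP2A2, STIM1 and ORAI1 at far higher levels than those of the ryanodine receptors.

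The comparison of each dose with control asked at which caffeine concentration these transcripts changed. A gene was called when its edgeR quasi-likelihood p, adjusted by Benjamini-Hochberg over all features tested, was under 0.05. No member was called at 0.01, 0.1 or 1 µM, where 0.0279%, 0% and 0.106% of all features were called. The unadjusted p was under 0.05 for 2, 2 and 0 members at those doses. With the set term, edgeR also called 0 members at these 3 doses, against 3.02%, 0.0223% and 0.629% of all features. At 10 µM 2 of the 7 tested members were called, both higher, against 14.8% of features called in either direction and 7.27% called higher. At 100 µM again 2 were called, both higher, against 46.6% and 23.6%. At 1000 µM 4 were called, all higher, against 57.6% and 28.5%. The share of members called at 1000 µM was thus close to that of all features. With the set term 0, 0 and 2 members were called at 10, 100 and 1000 µM, where 0.0279%, 17.3% and 38% of features were called. At 1000 µM 18.2% of features were called higher with it. The median log2 fold change of the 7 at 1000 µM was 0.37, beside -0.01 for all features tested, and 0.32 beside -0.03 with the set term.

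**Figure D1:**
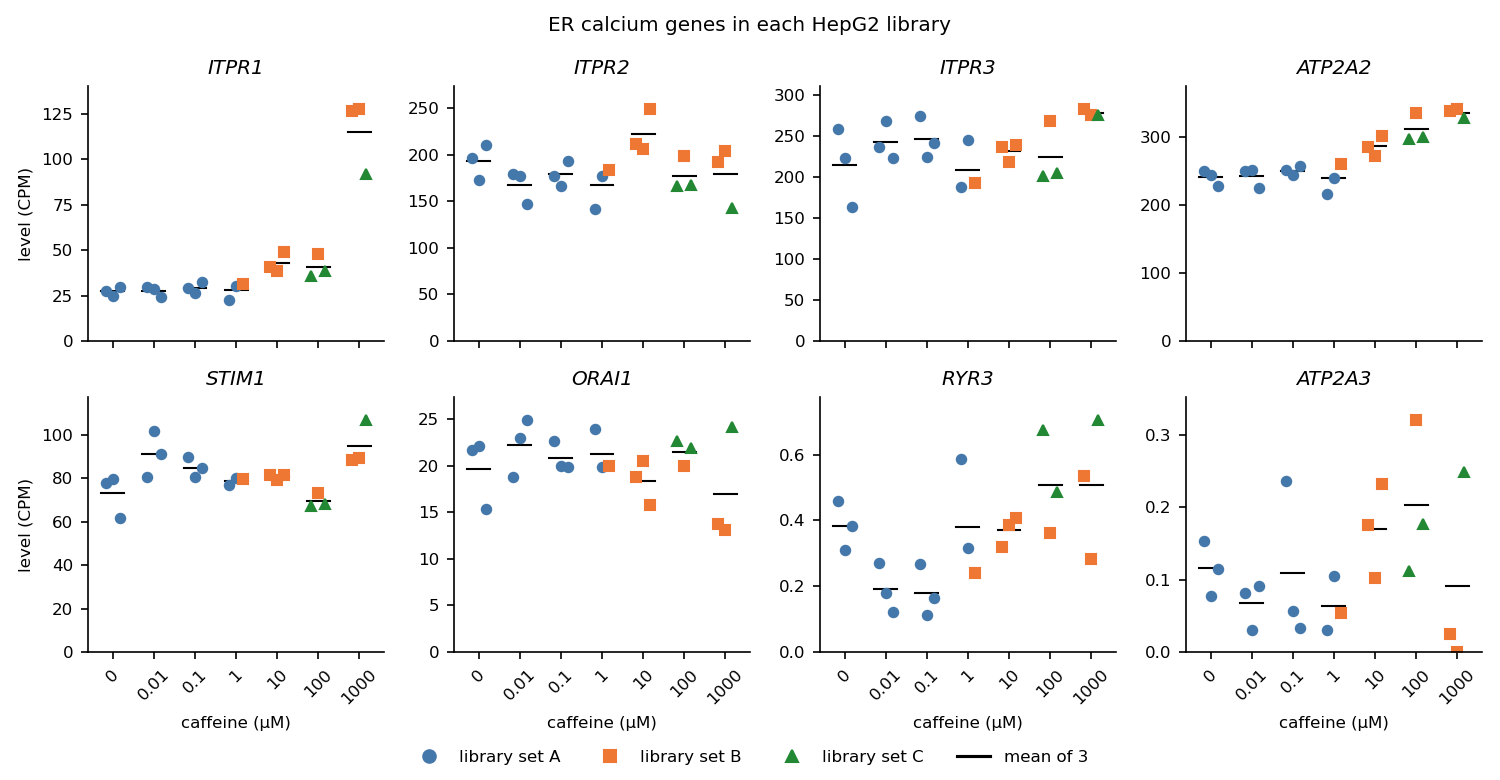
Level in CPM (vertical axes, from 0) of 8 of the 10 genes in each of the 21 libraries, by caffeine dose (horizontal axis). Points are single libraries, marked by library set, and bars are means of 3. ITPR1 at 1000 µM lies between 91.7 and 127.6 CPM, above every other library, and ORAI1 at 1000 µM splits between set B and set C.

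ITPR1, the IP3 receptor best known from neurons, had the largest rise of the 7. It lies on chromosome 3 (GRCh38, chr3:4493345-4847840, plus strand). The antisense gene AC018816.1, which overlaps its exons by 444 bases, was not analysed here. In control cells its 3 libraries had 27.6, 24.6 and 30.0 CPM. At 0.01 µM they had 29.6, 28.4 and 24.3 CPM, at 0.1 µM 28.9, 26.4 and 32.4 CPM, and at 1 µM 22.8, 30.2 and 31.4 CPM. All of these overlapped with control. At 10 µM the libraries had 40.5, 38.7 and 49.0 CPM, and at 100 µM 35.5, 48.1 and 38.8 CPM. Both groups lay above every control library and overlapped with each other. At 1000 µM they had 126.3, 127.6 and 91.7 CPM, and the lowest of them was the set C library.

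ITPR1 rose 4.21-fold at 1000 µM, a log2 fold change of 2.07 ± 0.156 (SE, edgeR adjusted p = 1.48e-09). Of the 17951 features, 528 had a larger rise. With the set term the log2 fold change was 1.96 ± 0.216 (edgeR adjusted p = 1.04e-06). In bulk RNA, fewer cells of a type and less RNA per cell cannot be told apart, and the same holds for more of either. At the lower doses the call was not kept with the set term. The log2 fold change was 0.64 at 10 µM (edgeR adjusted p = 0.0108) and 0.40 with the set term (adjusted p = 0.987). At 100 µM it was 0.58 ± 0.153 (edgeR adjusted p = 0.00436) and 0.60 ± 0.222 with the set term (adjusted p = 0.0675). Without replicate 3 at 10 µM the ITPR1 value there was 0.54 with an adjusted p of 0.0541.

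Comparisons within a set leave the set difference out. Within set B, ITPR1 had 31.4 CPM in the library at 1 µM, 38.7 to 49.0 CPM at 10 µM, 48.1 CPM at 100 µM and 126.3 and 127.6 CPM at 1000 µM. The rise from 10 to 1000 µM among set B libraries alone was 1.54 ± 0.0895 on the log2 scale (edgeR adjusted p = 4.66e-07). The rise from 100 to 1000 µM was 1.50 ± 0.153 without the set (edgeR adjusted p = 2.22e-07) and 1.35 ± 0.120 with it. In a fit with a mean for each dose and set, the rise was 1.40 among set B libraries and 1.30 among those of set C. Set B has 1 library at 100 µM and set C 1 at 1000 µM, so every p from this fit that uses them takes the spread from the other groups and assumes that a lone library varies like those. The difference of 0.10 between the sets was not called (95% interval -0.40 to 0.59, adjusted p = 0.89). Among set B libraries the rise from 1 to 1000 µM was 2.02 in that fit, so most of it lay between 100 and 1000 µM. Set C holds no dose below 100 µM.

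The 250 bases before the RefSeq start of ITPR1 (GRCh38.p14, chr3:4493098-4493347, plus strand) are shown because this gene had the largest rise of the family, beside those of ITPR3 (chr6:33621072-33621321, plus strand), whose rise was small. Both are from RefSeq's promoter windows, and capitals mark the TATA motif and the xenobiotic response core.
ITPR1: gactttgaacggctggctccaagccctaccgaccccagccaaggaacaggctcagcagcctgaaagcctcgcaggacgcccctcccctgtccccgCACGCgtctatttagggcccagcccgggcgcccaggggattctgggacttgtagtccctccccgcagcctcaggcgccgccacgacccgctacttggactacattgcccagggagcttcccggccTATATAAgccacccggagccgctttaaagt
ITPR3: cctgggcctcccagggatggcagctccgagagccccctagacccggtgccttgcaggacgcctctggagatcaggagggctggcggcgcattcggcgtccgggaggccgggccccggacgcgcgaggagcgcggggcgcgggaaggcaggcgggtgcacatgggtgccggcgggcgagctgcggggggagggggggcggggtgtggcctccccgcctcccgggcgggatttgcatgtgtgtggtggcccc
The capitals in ITPR1 are TATATAA, 30 bases before the start, and the reverse complement of GCGTG, 155 bases before it. Neither occurs in the ITPR3 window, which lies downstream of the GENCODE 29 start of that gene (chr6:33620365). GCGTG also occurs in windows of RYR1, ATP2A2 and STIM1, so it does not set ITPR1 apart among the members. On both strands, TATATAA occurs in 2.42% and GCGTG in 32.2% of 35116 windows of this length. The cAMP response element TGACGTCA (1.65% of windows), its core TGACG (21.2%) and the NFAT core GGAAA (55.6%) were found in neither window. GGGCGG, the GC box, occurred 2 times in the ITPR3 window and not in that of ITPR1, against 42.6% of all windows. TATATAA was looked for after the sequence was seen. A match describes the sequence and not a bound site.

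ITPR2, the main IP3 receptor of hepatocytes, was not called at any dose. It had 196.8, 172.8 and 209.9 CPM in control cells and 191.6, 203.8 and 143.1 CPM at 1000 µM, and the groups overlapped. The log2 fold change was -0.11 at 1000 µM (95% interval -0.38 to 0.17, edgeR adjusted p = 0.514) and -0.21 with the set term (adjusted p = 0.414). Its highest mean was at 10 µM, 222.1 ± 23.3 CPM (SD, n = 3), where all libraries are of set B. Within set B the 1000 µM libraries lay below all 3 at 10 µM, by a log2 difference of -0.20 (edgeR adjusted p = 0.0540). Without replicate 1, 2 or 3 at 10 µM it was -0.24, -0.24 and -0.11, and each of these passed (adjusted p = 0.0441, 0.0138 and 0.0453). These were the 3 of 7 left-out fits in which the call changed. With all libraries and the set term the log2 difference was -0.20 (edgeR adjusted p = 0.113). It was -0.17 with a mean for each dose and set (edgeR adjusted p = 0.204), and neither was called. A joint test of the library set over all doses, given the dose, called ITPR1 and ITPR2, 2 of 7 beside 29.6% of features (edgeR adjusted p = 0.0206 and 0.0317).

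ITPR3, an IP3 receptor of many epithelia, had 258.2, 222.3 and 163.0 CPM in control cells. At 1000 µM it had 282.2, 275.7 and 275.6 CPM, above every control library. It rose by 0.37 ± 0.144 on the log2 scale (edgeR adjusted p = 0.0330). With the set term the value was 0.61 ± 0.255 with an adjusted p of 0.0688, and without control replicate 3, the low library, it was 0.21 with an adjusted p of 0.189. The call was also lost without control replicate 2 (adjusted p = 0.0571) and without replicate 1, 2 or 3 at 1000 µM (0.0750, 0.0626 and 0.0539), at log2 fold changes of 0.36 to 0.40. That control library was also the lowest of the 3 for STIM1, at 61.8 CPM, and ORAI1, at 15.4 CPM. ITPR3 exons overlap those of UQCC2, a mitochondrial assembly factor gene on the opposite strand, by 1025 bases, and whether the counting used strand is not given. UQCC2 had 8.47 CPM in control cells and 17.7 CPM at 1000 µM, a log2 fold change of 1.06 that turned to -0.16 with the set term (edgeR adjusted p = 0.00752 and 0.455), and its part in the ITPR3 value was not tested.

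The make-up of the IP3 receptor reads was taken as the share of each gene in their sum. In control libraries ITPR1 gave 5.71%, 5.86% and 7.44% of them, ITPR2 40.8%, 41.2% and 52.1%, and ITPR3 53.5%, 53.0% and 40.5%. At 1000 µM ITPR1 gave 21.0%, 21.0% and 18.0%. The exact Clopper-Pearson 95% intervals were 5.35% to 6.08% for control replicate 1 and 20.5% to 21.6% for replicate 1 at 1000 µM, for counting error only. Every treated library at 10, 100 and 1000 µM lay above every control library, with means of 8.60%, 9.20% and 20.0% against 6.34%. All of these treated libraries are of set B or C and all controls of set A. At 1 µM the set B library had 7.70%, also above every control, and the set A libraries 6.46% and 6.69%. The part of the set in these shares was not tested. The share of ITPR2 was 44.7% ± 6.42 in control and 31.2% ± 2.84 (SD, n = 3) at 1000 µM, with no overlap. It also lay below every control library at 0.01 µM, at 38.3% ± 1.70, with the same p as at 1000 µM. The share of ITPR3 was 49.0% in control and 48.8% at 1000 µM, with overlap. For ITPR1 and ITPR2 at 1000 µM the 2-sided exact permutation p was 0.1, the smallest that 3 against 3 libraries allow, and 0.36 after Benjamini-Hochberg adjustment over the 36 comparisons of composition. From mean RPKM by principal transcript, ITPR1 went from 6.76% to 21.2% of the family, and by joined exons from 2.24% to 7.75%.

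**Figure D2:**
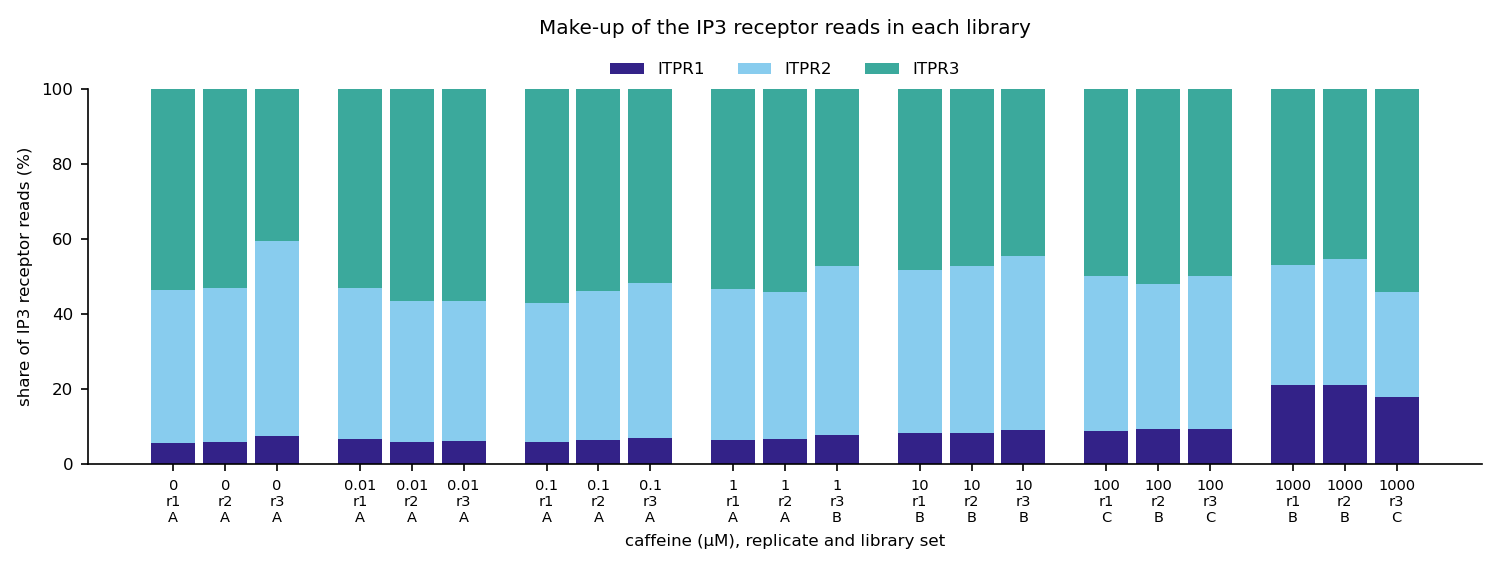
Share of the reads of the 3 IP3 receptor genes (vertical axis, percent) that came from ITPR1, ITPR2 and ITPR3 in each of the 21 libraries, ordered by caffeine dose, replicate (r) and library set. ITPR1 takes 18.0% to 21.0% of the reads at 1000 µM and under 10% in every other library.

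RYR3 was called in none of the 6 comparisons with control. It had 15, 12 and 10 counts in control libraries, 10, 6 and 4 at 0.01 µM and 9, 4 and 5 at 0.1 µM. The log2 fold changes at these doses were -0.98 (edgeR unadjusted p = 0.0396, adjusted p = 0.312) and -1.07 (unadjusted p = 0.0280, adjusted p = 0.473). The values with the set term were -0.97 and -1.07 (adjusted p = 0.160 and 0.221). At 1000 µM it had 21, 8 and 17 counts, which overlapped with control. The log2 fold change there was 0.40 (edgeR adjusted p = 0.417), and 1.02 with the set term (adjusted p = 0.258). The antisense gene AC010809.2 overlaps RYR3 exons by 434 bases and had 0.152 CPM in control cells.

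ATP2A2, the SERCA2 pump and the main route of calcium back into the ER in most cells, rose at the 3 highest doses. It lies on chromosome 12 (GRCh38, chr12:110280756-110351093, plus strand). Control libraries had 248.9, 243.8 and 227.4 CPM, those at 10 µM 284.1, 272.0 and 301.3 CPM, those at 100 µM 296.8, 334.9 and 299.6 CPM, and those at 1000 µM 337.0, 340.2 and 327.8 CPM. Each of these 3 doses lay above control without overlap, while 100 and 1000 µM overlapped. The log2 fold changes were 0.25, 0.37 and 0.48 (edgeR adjusted p = 0.0373, 0.000739 and 3.23e-05). With the set term they were 0.06, 0.25 and 0.32, with adjusted p = 1, 0.203 and 0.0422, so the call held at 1000 µM alone. Leaving out any 1 library of the 10 µM or control group ended the ATP2A2 call at 10 µM, with edgeR adjusted p from 0.0560 to 0.141. Within set B the rise from 10 to 1000 µM was 0.21 ± 0.0546 (edgeR adjusted p = 0.00439).

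Set against the channels it works with, ATP2A2 gave 0.554 ± 0.0339 counts per IP3 receptor count in control cells. The ratio was 0.705 ± 0.0476 at 100 µM, above every control library, and 0.588 ± 0.0469 (SD, n = 3) at 1000 µM, which overlapped with control. The summed IP3 receptor level was 402.9 to 482.6 CPM in control and 510.4 to 607.0 CPM at 1000 µM.

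ATP2A3 is given by its counts alone, since it passed the filter only among set B libraries, through those where it was high. In that set it had 6, 4 and 8 counts at 10 µM, 15 at 100 µM and 1 and 0 at 1000 µM. The set C library at 1000 µM had 6 counts, and the control libraries 5, 3 and 3, so the low counts at 1000 µM were those of set B.

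STIM1, the ER calcium sensor, had 77.8, 79.7 and 61.8 CPM in control cells. At 100 µM it had 67.0, 73.2 and 68.0 CPM, and at 1000 µM 88.2, 89.5 and 106.7 CPM. The 1000 µM libraries lay above all of both groups. STIM1 rose by 0.37 ± 0.100 on the log2 scale against control (edgeR adjusted p = 0.00357), and the value with the set term was 0.32 with an adjusted p of 0.171. Within set B, from 10 to 1000 µM, it was 0.11 ± 0.0502 and not called (edgeR adjusted p = 0.0809). Without replicate 3 at 10 µM it was 0.12 with an adjusted p of 0.0288, the 1 of 7 left-out fits where the call changed. Against 100 µM it rose by 0.45 ± 0.101, and by 0.47 ± 0.102 with the set term (edgeR adjusted p = 0.00127 and 0.000877). In the fit with a mean for each dose and set, with its lone libraries, the value was 0.28 in set B (adjusted p = 0.101) and 0.66 in set C (adjusted p = 0.000836), and the difference of -0.38 between them was not called (adjusted p = 0.323). ITPR1 and STIM1 were the 2 members called between 1000 and 100 µM, both higher, beside 44% of features called and 21.8% called higher, or 46.3% and 22.4% with the set term. At 0.01 µM STIM1 had 80.4, 101.9 and 91.0 CPM, above all 3 controls, with a log2 fold change of 0.32 and an edgeR adjusted p of 0.173. It was the 1 member called at this dose in the fit with a mean for each dose and set, beside 5.9% of features (edgeR adjusted p = 0.0444).

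ORAI1, the plasma membrane channel that STIM1 opens, was not called at any dose against control. It had 21.7, 22.1 and 15.4 CPM in control cells and 13.7, 13.1 and 24.2 CPM at 1000 µM. The first 2 of those at 1000 µM are of set B and lie below every other library, while the last is of set C and lies above every control. The log2 fold change was -0.22 ± 0.191 (edgeR adjusted p = 0.326) and -0.30 with the set term (adjusted p = 0.426). Without replicate 3 at 1000 µM it was -0.57 with an adjusted p of 0.00386. Over the 21 left-out fits it ran from -0.57 to -0.07 (edgeR adjusted p from 0.00386 to 0.793), and only that call changed. At 1000 µM the 2 libraries of set B lay below the 1 of set C by a log2 difference of -0.85 (edgeR adjusted p = 0.00462, with the spread of the other groups). Within set B, ORAI1 fell from 18.8, 20.5 and 15.8 CPM at 10 µM to the 2 values at 1000 µM, by a log2 fold change of -0.49 ± 0.104 (edgeR adjusted p = 0.00146). From 100 to 1000 µM it was -0.57 in set B and 0.12 in set C, each with 1 library in an arm, a difference of -0.69 with an unadjusted p of 0.0229 and an adjusted p of 0.227.

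STIM1 gave 3.59, 3.61 and 4.02 counts per ORAI1 count in control libraries and 6.44, 6.85 and 4.42 at 1000 µM. All 3 lay above control (2-sided exact permutation p = 0.1), the set C library least. The other doses overlapped with control.

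The comparison of 1000 with 10 µM among set B libraries called 4 of the 7 members that also passed the filter over all libraries, ITPR1, ITPR3 and ATP2A2 higher and ORAI1 lower, beside 65.1% of features called, 31.5% higher and 33.6% lower. It rests on 2 libraries at 1000 µM and 3 at 10 µM. With all 21 libraries and the set term, 2 of 7 members were called, ITPR1 and ATP2A2, both higher, beside 59.1% of features and 29.2% called higher. In the fit with a mean for each dose and set, ORAI1 was called as well, lower, beside 60.1% of features. Over the 7 groups jointly, edgeR called ITPR1, RYR3, ATP2A2 and STIM1, 4 of 7, beside 73.6% of features. With the set term the joint test called ITPR1, ATP2A2 and STIM1, beside 59.8% of features, and RYR3 had an adjusted p of 0.0622.

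**Figure D3:**
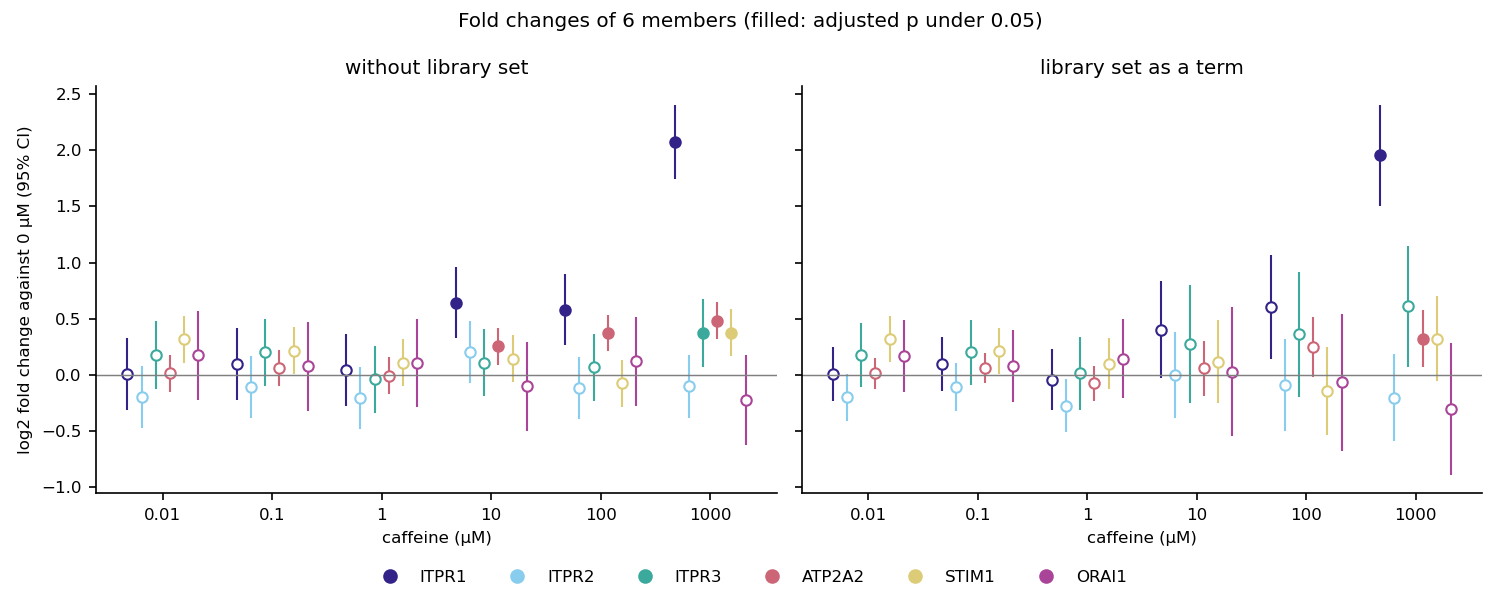
Log2 fold change against 0 µM with its 95% confidence interval (vertical axis) for 6 members at each caffeine dose (horizontal axis), from 3 libraries per group, without the library set (left) and with it as a term (right). Filled points have an edgeR adjusted p under 0.05. ITPR1 at 1000 µM is 2.07 at left and 1.96 at right, and the filled points at 10 and 100 µM at left are open at right.

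The genes that work with these channels and pumps were described from 6 lists of calcium pathway genes, of which 111 were in the table and 91 were tested. At 1000 µM 63 were called (69.2%), 35 higher and 28 lower, and with the set term 40 (44.0%), 22 higher and 18 lower. Of all features, 57.6% were called, 28.5% higher and 29.1% lower, and with the set term 38%, 18.2% higher and 19.8% lower. The lists moved in both directions, with a median log2 fold change of 0.14, or 0.02 with the set term. In each list the genes named are those with the smallest p with the set term, and those named passed in both fits.

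Among 15 tested partners of pumping and refill, 7 were called at 1000 µM (46.7%, beside 57.6% of all features), 1 higher and 6 lower. In the fit with the set term 4 were called (26.7%, beside 38%), all lower. The median log2 fold change of the list was -0.16, or -0.19 with the set term. CALR, calreticulin, which binds calcium inside the ER, fell by 1.44 on the log2 scale, from 1719 ± 100.1 CPM in control to 632 ± 91.4 CPM (SD, n = 3). The ER chaperone HSPA5 fell from 1478 to 1023 CPM. ORAI3, a relative of ORAI1, fell from 15.3 to 11.1 CPM. The log2 fold change of HSPA5 moved from -0.53 to -0.35 with the set term, and that of ORAI3 from -0.47 to -0.91. CRACR2A, a regulator of ORAI channels, went from 0.246 CPM to 0 counts in all 3 libraries at 1000 µM, where 3 counts are 0.0765 to 0.124 CPM. STIM2, the relative of STIM1, had 22.8 CPM in control and 23.6 CPM at 1000 µM and was not called in either fit, at log2 fold changes of 0.05 and 0.33 with the set term, while within set B it rose by 0.55 from 10 to 1000 µM (edgeR adjusted p = 2.21e-05). ORAI2 had 9.47 and 10.6 CPM and was not called either.

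Among 23 tested partners of the release channels, 18 were called at 1000 µM (78.3%, beside 57.6% of all features), 10 higher and 8 lower. Of these genes 11 were called with the set term (47.8%, beside 38%), 7 higher and 4 lower. The list's median was 0.36, or -0.01 with the set term. ITPRIP, which binds IP3 receptors, rose from 11.8 to 38.0 CPM, and HOMER1, a scaffold that ties them to surface receptors, from 19.6 to 41.0 CPM. PKD2, polycystin-2, itself an ER calcium channel, rose by 2.14 on the log2 scale, from 5.95 CPM to 26.2 CPM.

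Of 15 tested genes of IP3 making and removal, 13 were called at 1000 µM (86.7%, beside 57.6% of all features), 8 higher and 5 lower. In the fit with the set term 9 were called (60.0%, beside 38%), 5 higher and 4 lower, and the medians were 0.31 and 0.01. The phospholipases PLCB3 and PLCD1, which make IP3, fell from 36.9 to 14.0 CPM and from 13.9 to 5.42 CPM. GNAQ, the G protein subunit that switches on PLCB enzymes, rose from 56.3 to 110.1 CPM, and INPP1, an inositol phosphatase, from 42.5 to 95.2 CPM.

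Of 5 tested genes of calcium export at the plasma membrane and Golgi, 3 were called (60.0%, near the 57.6% of all features), 2 higher and 1 lower. Of these genes 2 were called with the set term (40.0%, beside 38%), 1 in each direction, and the medians were 0.52 and 0.35. ATP2B4, a plasma membrane calcium pump, rose from 0.149 ± 0.0847 to 2.84 ± 0.0944 CPM (SD, n = 3), and TMEM165, a Golgi transporter, fell from 117.2 to 55.3 CPM. Of 17 tested genes of mitochondrial uptake, 11 were called (64.7%, beside 57.6% of all features), 7 higher and 4 lower. In the fit with the set term 6 were called (35.3%, beside 38%), 4 higher and 2 lower, and the medians were 0.07 and 0.13. The outer membrane channel VDAC2 rose from 110.4 to 264.5 CPM while VDAC3 fell from 126.3 to 77.5 CPM. HSPA9, which bridges IP3 receptors to VDAC, rose from 448.8 to 781.0 CPM, and VAPB, an ER tether, from 101.2 to 156.2 CPM. The log2 fold change of VDAC2 moved from 1.26 to 0.54 with the set term, that of VAPB from 0.63 to 0.41 and that of TMEM165 from -1.08 to -0.54.

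Of 16 tested genes of calcineurin and calmodulin kinase, 11 were called (68.8%, beside 57.6% of all features), 7 higher and 4 lower. Of these genes 8 were called with the set term (50%, beside 38%), 5 higher and 3 lower, and the medians were 0.21 and 0.01. RCAN1, an inhibitor of calcineurin, fell by 1.39 on the log2 scale, and by 1.40 with the set term, from 52.0 ± 2.08 CPM in control to 19.9 ± 0.981 CPM (SD, n = 3). NFATC3, a transcription factor that calcineurin activates, rose from 107.8 to 166.6 CPM, and the kinase gene CAMK2D from 25.5 to 50.7 CPM. CAMK4 had 0.434 CPM in control and 0.0728 CPM at 1000 µM. Of 6 tested genes beside or across the members in the genome, 4 were called (66.7%, beside 57.6% of all features), 2 in each direction, and 2 with the set term (33.3%, beside 38%). RASSF8, near ITPR2, rose from 0.490 to 2.59 CPM and RRM1, near STIM1, fell from 53.3 to 35.4 CPM.

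**Figure D4:**
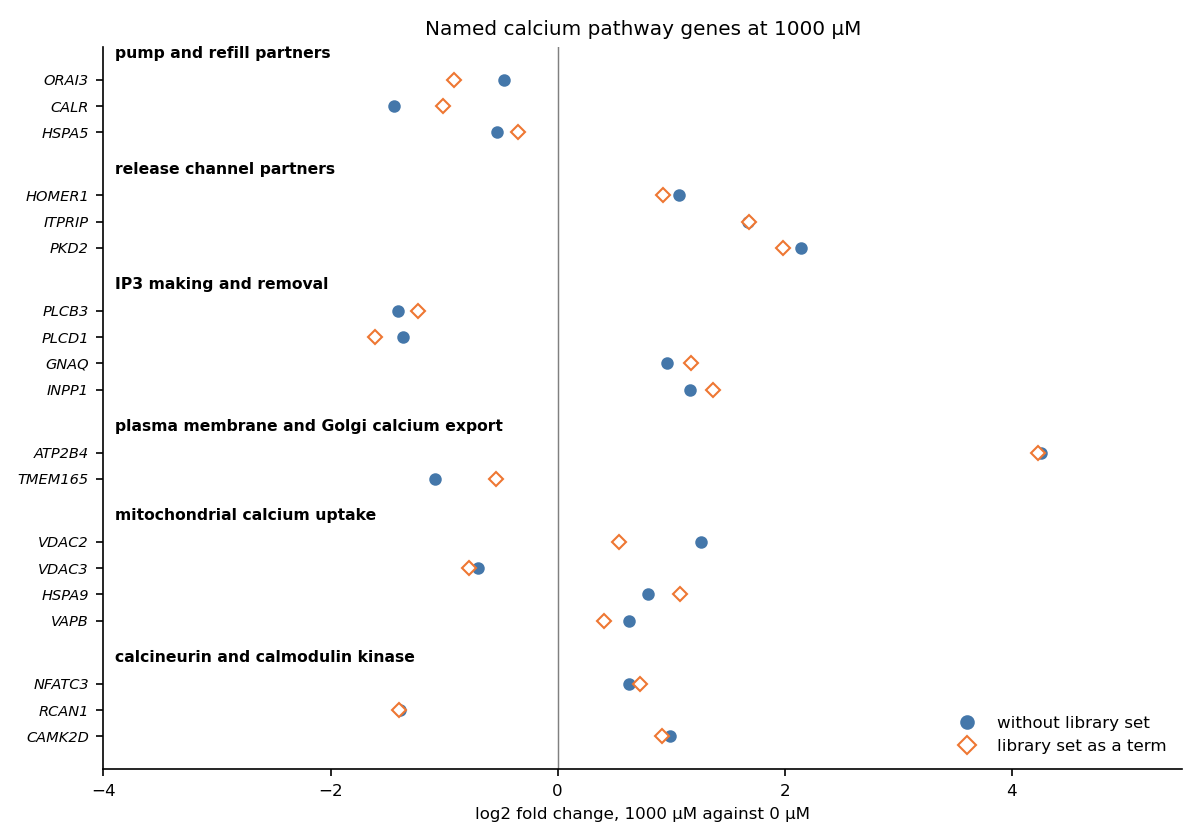
Log2 fold change at 1000 µM against 0 µM (horizontal axis, n = 3 libraries per group) of the genes the text names from the 6 calcium pathway lists, without the library set (filled circles) and with it as a term (open diamonds). CRACR2A and CAMK4, whose mean at 1000 µM is below the level of 3 counts, are left out. ITPRIP, HOMER1, PKD2 and ATP2B4 lie above 0 and CALR, PLCB3, PLCD1 and RCAN1 below it in both fits.

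The genes whose levels followed each member most closely were ranked by Pearson r over the 21 libraries after removing the mean of each library set, among 10602 genes with a mean of at least 5 CPM. The r is a description, since these libraries share doses and sets. ITPR1 was followed most closely by SORL1 (r = 0.993), UTRN (0.990) and ITGA2 (0.988). SORL1, a sorting receptor, went from 192.5 CPM in control to 570.4 CPM at 1000 µM. ATP2A2 was nearest to HERC2, BAZ2A and TRRAP (r = 0.961, 0.952 and 0.949). STIM1 was nearest to CMIP, SLC7A5 and SLC29A3 (0.976, 0.952 and 0.952) and ORAI1 to POLRMT, MAP1S and REPIN1 (0.946, 0.938 and 0.932). ITPR2 was nearest to LRBA (0.937) and ITPR3 to POLR1A (0.947). For RYR3, with 4 to 21 counts per library, the highest r was 0.625, with ARMC10. Among the members themselves ITPR3 and ATP2A2 were the closest pair (r = 0.812), followed by ITPR1 and ATP2A2 (0.768), while ITPR1 and ORAI1 had r = -0.629.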

How the data were processed

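The deposited table holds raw counts of reads per gene, as whole numbers with no normalization by the authors. The submitters' processing notes name HISAT2, DESeq2 and GRCh38 without a role. The counting tool, annotation and use of strand are not given in the sources used here. Samples were grouped by the dose in their labels, and 21 other columns, which match no sample here, were left out. The design calls the replicates biological without saying that they were separate cultures, so p-values measure the spread between these samples. The smallest chi-square per gene between replicates was 3.59 over 21 pairs, so no pair differed by less than counting noise.

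Positions and lengths came from GENCODE 29, and symbols from a separate list of gene names. Of the features with an Ensembl identifier, 66.5% had the same versioned identifier in GENCODE 29. Among the members, ITPR2, ITPR3, RYR2, ATP2A2 and ATP2A3 did not. Counts were filtered with edgeR's filterByExpr, scaled by TMM and fitted in R 4.3.3 with edgeR 4.0.16, in 1 quasi-likelihood model of all 21 libraries with 2-sided F-tests and Benjamini-Hochberg adjustment over 17951 features at 0.05. CPM used TMM-scaled library sizes, log2 CPM a prior count of 2, and RPKM the principal transcript. Library sets came from average-linkage clustering of the relative log2 levels of 13 mitochondrial mRNAs (mean silhouette 0.571). Fits were tested on simulated counts without a library set effect, so that test cannot show how they behave where set and dose overlap. Reads carry no molecular identifiers, so intervals and floors cover counting error only.

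Alternatives were DESeq2 size factors, DESeq2 1.42.0, no filter, the replicate number as a block, the set term, set A alone, only the 2 groups compared and each library left out. A mean per dose and set, and joined exon length, were added after seeing the data. Members, lists, tests and the rule for named genes were chosen with earlier results of these data known. That rule took up to 4 genes per list with the smallest p with the set term, called with it and of the same direction without it, and the 3 genes most like each member. A pathway gene that the rule takes is not reported here. The lists were pump and refill partners, release channel partners, IP3 making and removal, calcium export, mitochondrial uptake, calcineurin and calmodulin kinase, neighbouring or overlapping genes, hepatocyte markers and markers of other cell types. Pathway genes outside the table were not analysed here, and ITPR2, ATP2A3 and ORAI1 had no entry among the promoter windows.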

Additional observations from a re-analysis of the deposited data

How the results depend on the processing

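Of 301 alternative values for single members, 271 kept their side of the threshold, 253 of them with their sign and 18, uncalled in both fits, without it. A call was lost in 21 and gained in 9, and none of the called values reversed. Numbers of members called are given here. With the library set as a term, 0, 0 and 2 were called at 10, 100 and 1000 µM instead of 2, 2 and 4. Without the filter 1 was called at 10 µM, and with only control and 1000 µM in the fit 2 at 1000 µM. At 0.01 µM 1 member was called by DESeq2 and 1, STIM1, with a mean per dose and set, instead of 0. For 1000 against 10 µM within set B, over the 7 members tested in every fit, 2 were called with all libraries and the set term, 2 with all libraries and no set term and 3 with a mean per dose and set, instead of 4. DESeq2 size factors, the DESeq2 test and no filter each called 5 of these 7. The cause was not tested.

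Replicate numbers did not pair the samples, since mean correlations of same-numbered deviations ran from -0.402 to 0.292 over 21 pairs of groups and 3 of 21 libraries lay nearest their own number. With the replicate number as a block, 0, 0, 0, 1, 2 and 4 members were called at the 6 rising doses, 2 between 1000 and 100 µM, 4 jointly and 5 of the same 7 within set B.

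Leaving out 1 library at a time gave 0 to 0 calls at the 3 lowest doses. It gave 0 to 2 at 10 µM, with 0 when replicate 3 at that dose was out, 2 to 2 at 100 µM and 3 to 4 at 1000 µM. Between 1000 and 100 µM it gave 2 to 3, within set B 4 to 6 of the 7 and jointly 3 to 6. The joint test gave 6 without replicate 3 at 1000 µM, and set B gave 6 without replicate 3 at 10 µM. Depth limits RYR1, RYR2, RYR3 and ATP2A3, which had at most 21 counts in any library.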
